A study of Homo sapiens with 6 samples.

Results

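Genes of LDL uptake and lysosomal cholesterol trafficking were looked up by gene symbol on Clariom D arrays of fluvastatin-sensitive and fluvastatin-resistant breast epithelial cells, and the 8 described here, called the members, are 8 of 81496 symbols on the array. They are the surface receptors LRP8, VLDLR and SCARB1, the receptor-degrading ligase MYLIP, the lysosomal proteins LIPA, NPC1 and NPC2, and the sterol carrier STARD4. The members were chosen by name and not by a measured value, though with earlier results of these data known. They carry 10 probe sets, groups of short probes summarised into 1 value per array, of which LIPA has 3 and each other member has 1. For LIPA the probe set with the highest mean over the compared arrays is the main probe set.

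MCF10.AT1, derived from human MCF10A breast epithelial cells, is a preneoplastic line sensitive to fluvastatin, though the labels give its cell type as breast cancer. MCF10.AT1-R was selected from it in fluvastatin at doses rising from 1 µM through 5 µM to 20 µM. It is a single selected line. The labels carry the same treatment text for both lines and call MCF10.AT1 untreated. They do not say whether drug was present when RNA was taken from MCF10.AT1-R. Each line has 3 arrays, which the labels call biological replicates. The array names do not state the line, which was inferred. A01 to A03 were taken as MCF10.AT1 and B02 to B04 as MCF10.AT1-R, because with A03 removed the study keeps fewer samples of MCF10.AT1 than of MCF10.AT1-R, and every direction given here rests on that reading. A03, which the study removed as an outlier, is given separately, and the lines were compared over the other 5 arrays.

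Values are log2 expression after RMA, so a difference of 1 is a doubling. All 8 breast epithelial markers examined, among them KRT5, CDH1 and EPCAM, lay above the negative control probe sets on all 5 arrays, and 5 of the 7 that were tested were called higher in MCF10.AT1-R (KRT17 by 4.08 and KRT14 by 2.37 on the log2 scale), against 0.758% of all tested probe sets. Of 8 markers of other cell types, 4 were at control level on all 5 arrays, PTPRC of blood cells and ADIPOQ of fat cells among them, while the collagens COL1A1 and COL3A1 of fibroblasts and PECAM1, an endothelial marker, lay above the controls on all 5, and ESR1 on 2. PECAM1 had a log2 change of -1.12 (limma, adjusted p = 0.0307). The part of these shifts in the members' values was not tested. The median log2 change of all tested probe sets was -0.01.

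Cells take up cholesterol by binding lipoproteins at receptors of the surface, which clathrin-coated pits carry into endosomes. In the lysosome LIPA, the lysosomal acid lipase, frees cholesterol from its esters, the soluble protein NPC2 hands it to the membrane protein NPC1, and carriers such as STARD4 then move sterol between membranes. Statins block HMG-CoA reductase, and sterol-poor cells are known to activate SREBP2. This transcription factor induces the genes of cholesterol synthesis and several genes of uptake and sterol transport, STARD4 among the latter.

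The promoters of STARD4, LIPA and NPC2 are shown because these were the members whose arrays differed most between the lines while lying above the controls on all 5 arrays. The windows, from RefSeq on GRCh38.p14, run from 250 bases before to 50 bases after the start of the gene, 5′ to 3′ on its strand. Capitals mark CCAAT, the motif of NF-Y, and GGGCGG, the motif of SP1, on either strand, and neighbouring GGGCGG matches may overlap. The STARD4 window is chr5:111512486-111512785, minus strand, the LIPA window is chr10:89251726-89252025, minus strand, and the NPC2 window is chr14:74493463-74493762, minus strand.
STARD4: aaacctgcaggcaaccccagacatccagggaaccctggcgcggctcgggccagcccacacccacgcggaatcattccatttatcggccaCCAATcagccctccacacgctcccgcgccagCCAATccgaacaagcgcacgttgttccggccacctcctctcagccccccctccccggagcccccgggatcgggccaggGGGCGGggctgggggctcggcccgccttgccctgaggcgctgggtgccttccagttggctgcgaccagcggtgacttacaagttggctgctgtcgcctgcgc
LIPA: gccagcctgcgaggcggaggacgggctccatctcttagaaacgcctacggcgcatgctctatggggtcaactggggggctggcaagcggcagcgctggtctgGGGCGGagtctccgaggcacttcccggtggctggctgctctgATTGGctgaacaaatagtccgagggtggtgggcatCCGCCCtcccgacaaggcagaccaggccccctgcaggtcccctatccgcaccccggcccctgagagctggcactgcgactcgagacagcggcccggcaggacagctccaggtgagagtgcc
NPC2: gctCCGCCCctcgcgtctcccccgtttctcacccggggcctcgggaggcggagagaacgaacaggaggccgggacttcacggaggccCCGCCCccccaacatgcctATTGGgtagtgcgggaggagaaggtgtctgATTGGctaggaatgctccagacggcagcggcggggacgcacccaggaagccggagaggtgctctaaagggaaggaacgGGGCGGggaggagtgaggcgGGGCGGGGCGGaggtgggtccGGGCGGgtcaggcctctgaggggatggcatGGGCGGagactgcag
The table holds 3 windows for LIPA and 2 for NPC2, and the LIPA window printed is the one farthest downstream. The STARD4 window holds 2 CCAAT motifs, from base -161 to -157 and from -130 to -126, and a GGGCGG motif from -52 to -47. The LIPA window holds 1 CCAAT and 2 GGGCGG matches, and the NPC2 window 2 CCAAT and 7 GGGCGG matches. CCAAT occurs in 34.6% and GGGCGG in 45% of all 35116 promoter windows. Of the members, 7 had a window, and 4 of the 7 held CCAAT in at least 1 window and 7 held GGGCGG. TCACNCCAC, the core of the sterol regulatory element bound by SREBP2, and CACGTG, the E-box within the motif of lysosomal genes, were searched on both strands and occurred in 0 of the 7. They are held by 1.13% and 7.26% of all windows. TCACNCCAC also occurred in 0 of the 14 synthesis genes that had a window. These counts describe letters in short windows and say nothing of binding.

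The members differed in direction. STARD4 and LIPA were higher in MCF10.AT1-R on every array, NPC2, LRP8, VLDLR and MYLIP were lower on every array, and SCARB1 and NPC1 overlapped between the lines. Of these, MYLIP lay at control level on all 5 arrays and VLDLR above it on only 1. After the filter on low and invariant probe sets 4 of the 8 members were tested, and limma called 0 of the 4 at an FDR of 5%, against 1.2% of the 51457 probe sets tested (0.758% higher and 0.447% lower in MCF10.AT1-R). At an unadjusted p under 0.05 there were 3 of the 4 (VLDLR, LIPA and STARD4), against 8.26% of all tested. The fit used a common SD of 0.34 for every probe set, and the smallest log2 change it called was 1.07. With an SD that follows the expression level (the trend option of limma) 3 of the 4 tested members passed an FDR of 5%, LIPA and STARD4 higher and NPC2 lower, against 2.68% of all tested (1.69% higher and 0.981% lower). That option with the low-expression filter alone called 2 members (1.6% of all tested), array weights 1 (1.43%), low values raised to a floor of 2.99 called 1 (0.6%), an FDR of 10% called 2 (1.65%), and leaving out B03 called 1 (1.16%). No member was called by limma with the robust option (1.29%), with probe sets averaged (1.18%), without a filter (0.13%), with the low-expression filter alone (0.268%), with the stricter invariant filter (1.13%), with A03 added (0.0447%), or without A01 (0.611%), A02 (0.53%), B02 (1.09%) or B04 (0.973%). LRP8, SCARB1, NPC1 and MYLIP were removed as invariant, with an SD under 0.18 over the 5 arrays. Non-overlapping arrays were seen for 2 members higher and 4 lower, against 12.2% and 11.1% of all 135750 transcript probe sets (23.3% in either direction) and 24.6% and 19.9% of those with a mean log2 value above 6. With 2 arrays against 3, an exact permutation test of a single gene cannot go below a one-sided p of 0.1.

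**Figure D1:**
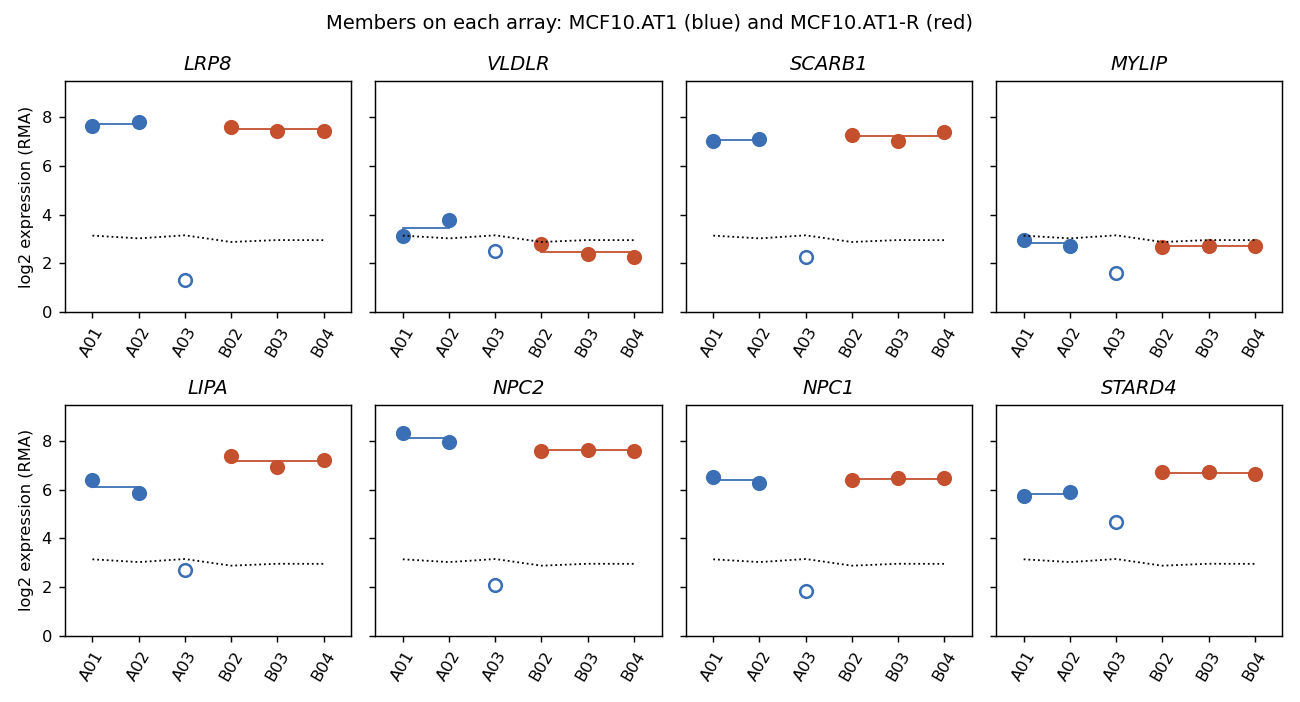
Log2 expression (RMA, vertical axis) of the 8 members on each array (horizontal axis), with MCF10.AT1 in blue and MCF10.AT1-R in red. Open circles are A03, horizontal lines are line means without A03, and the dotted line is the 95th percentile of the 612 negative controls on each array. STARD4 and LIPA are higher on all 3 MCF10.AT1-R arrays, NPC2 is lower on all 3, and MYLIP stays under the dotted line throughout.

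LRP8, also called apoER2, is a surface receptor for reelin and for lipoproteins. LRP8 read 7.66 on A01 and 7.81 on A02, against 7.62 on B02, 7.46 on B03 and 7.44 on B04. The MCF10.AT1-R arrays were the lower ones, with a gap of -0.04 between the nearest arrays of the lines, which is less than the SD of 0.10 within either line. The log2 change of -0.23 had a 95% interval from -0.65 to 0.20 in limma without a filter, which spans 0.

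VLDLR is a receptor of the same family that binds triglyceride-rich lipoproteins and reelin. VLDLR read 3.14 on A01, 3.79 on A02, 2.79 on B02, 2.38 on B03 and 2.26 on B04. All MCF10.AT1-R arrays lay below both MCF10.AT1 arrays, but A02 alone lay above the 95th percentile of the negative controls of its array. The log2 change was -0.99 (95% interval -1.60 to -0.38, adjusted p = 0.0930 from limma), and with values under 2.99, the mean of the arrays' control percentiles, raised to that floor the change was -0.47. Leaving out A02 gave -0.66 (adjusted p = 0.942 from limma), so the size of the difference depended on that array.

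SCARB1 is the receptor of high-density lipoprotein that mediates selective uptake of cholesteryl esters. SCARB1 read 7.02 on A01, 7.13 on A02, 7.27 on B02, 7.05 on B03 and 7.42 on B04. B03 lay between the MCF10.AT1 arrays, and the log2 change of 0.17 had a 95% interval from -0.28 to 0.63 in limma without a filter.

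MYLIP, also called IDOL, is a ubiquitin ligase induced by the sterol-activated LXR receptors that sends lipoprotein receptors to degradation. MYLIP read 2.96 on A01, 2.73 on A02, 2.67 on B02, 2.72 on B03 and 2.71 on B04, below the 95th percentile of the negative controls on each. Its order between the lines rested on a gap of -0.02, the lines overlapped after quantile normalization without A03 and after cyclic loess, and no direction can be given for a gene at this level.

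LIPA hydrolyses the cholesteryl esters and triglycerides that lipoproteins bring to the lysosome. LIPA (probe set TC1000012577.hg.1) read 6.41 on A01, 5.85 on A02, 7.38 on B02, 6.94 on B03 and 7.21 on B04. The lowest MCF10.AT1-R array lay 0.53 above the highest MCF10.AT1 array, a gap larger than the SD of 0.39 (n = 2) in MCF10.AT1 and 0.22 (n = 3) in MCF10.AT1-R. The log2 change was 1.04, or 2.06-fold (95% interval 0.43 to 1.66 on the log2 scale, adjusted p = 0.0602 from limma), and 1.34% of the tested probe sets changed by more. With the trend option the adjusted p from limma was 3.21e-06, though that fit gave no weight to LIPA's own residual SD of 0.29. The adjusted p was 0.00906 when that option was combined with the low-expression filter alone, and 0.255 with that filter and no trend. The other 2 LIPA probe sets lay within the negative controls on all 5 arrays, with log2 changes of 0.05 and 0.46 and overlapping lines. LIPA is in a list that the study drew from these same arrays, so its direction here is not independent of that list.

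NPC2 binds the cholesterol that LIPA frees and passes it to NPC1. NPC2 read 8.33 on A01 and 7.95 on A02, against 7.59 on B02, 7.65 on B03 and 7.62 on B04. The MCF10.AT1-R arrays lay within an SD of 0.03 of each other and all below MCF10.AT1, whose SD was 0.27 (n = 2). The log2 change was -0.52, or 0.70 times the MCF10.AT1 level (95% interval -1.13 to 0.09, adjusted p = 0.722 from limma). With the trend option the adjusted p was 0.0158. When the low-expression filter alone was combined with that option it was 0.0558. Leaving out A01 gave a log2 change of -0.33 (limma, adjusted p = 0.899).

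NPC1 is the lysosomal membrane protein through which cholesterol leaves the lysosome. NPC1 read 6.54 on A01, 6.29 on A02, 6.41 on B02, 6.51 on B03 and 6.47 on B04, so the MCF10.AT1-R arrays lay between the MCF10.AT1 arrays. Its log2 change of 0.04 had a 95% interval from -0.39 to 0.47 in limma without a filter, and the sign turned to -0.08 without A02. Of the 3 lysosomal members, LIPA was thus higher, NPC2 lower and NPC1 overlapping.

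STARD4 is a soluble protein with a START domain that carries sterol between the plasma membrane, endosomes and the endoplasmic reticulum. STARD4 read 5.74 on A01 and 5.90 on A02, against 6.73 on B02, 6.74 on B03 and 6.64 on B04. The gap of 0.74 between the nearest arrays of the lines was the widest among the members, and the SDs were 0.11 (n = 2) and 0.05 (n = 3). The log2 change was 0.89, or 1.85-fold (95% interval 0.27 to 1.5 on the log2 scale, adjusted p = 0.192 from limma). STARD4's own residual SD was 0.08 against the common SD of 0.34. The adjusted p was 0.00112 with the trend option and 0.00419 when that option was combined with the low-expression filter alone, but 0.163 with that filter and no trend. Leaving out any of the 5 arrays left its log2 change between 0.80 and 0.97.

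**Figure D2:**
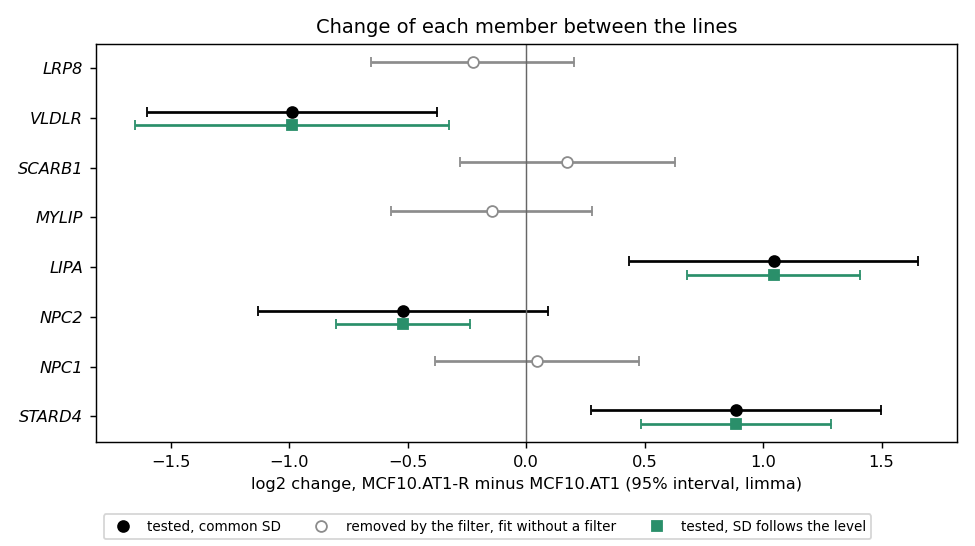
Log2 change of each member, MCF10.AT1-R minus MCF10.AT1 (horizontal axis), with 95% intervals from limma over 2 and 3 arrays. Black circles use the common SD of 0.34, green squares an SD that follows the expression level, and open circles are members removed as invariant, from a fit without a filter. The green intervals of LIPA, STARD4 and NPC2 are narrower than the black ones and do not reach 0.

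A03 read far below the other arrays for most members. LRP8 read 1.32 on it, NPC1 1.84, NPC2 2.10, SCARB1 2.28, LIPA 2.71, VLDLR 2.52 and MYLIP 1.58, all within its negative controls. STARD4, at 4.66, was the only member above them. A03 was the lowest array for 7 of the 8 members, the exception being VLDLR, and its correlation with the other arrays over all transcript probe sets was 0.779 to 0.795, against 0.967 to 0.977 among those. With A03 counted as MCF10.AT1, LRP8, NPC2 and MYLIP turned sign, to log2 changes of 1.91, 1.49 and 0.28. The change became 1.77 for SCARB1, 1.57 for NPC1, 2.19 for LIPA, 1.27 for STARD4 and -0.67 for VLDLR.

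The 18 genes of cholesterol synthesis and its feedback, which SREBP2 drives, were set beside the members as a reference already known to be higher on these arrays. Their log2 changes ran from 0.17 to 1.69 with a median of 0.87, and 17 of the 18 were higher on all 3 MCF10.AT1-R arrays, against 24.6% of probe sets with a mean above 6. limma tested 17 and called 2 at an FDR of 5% (1.2% of all tested) and 14 with the trend option (2.68%). STARD4 lay within this range, above 10 and below 8 of the 18. LIPA lay above 16 of them, SCARB1 above 1, and the other 5 members below all 18. The median log2 change of the 8 members was -0.05. The difference between the lists was not tested.

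**Figure D3:**
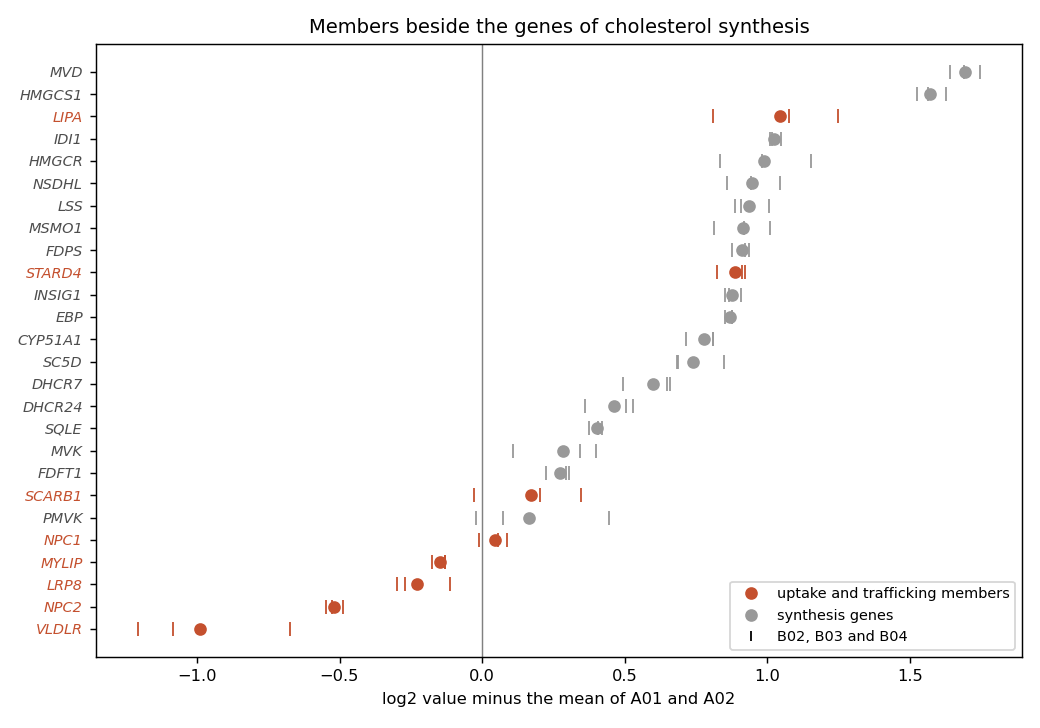
Log2 value minus the mean of A01 and A02 (horizontal axis) for the 8 members in red and 18 genes of cholesterol synthesis in grey, ordered by their log2 change. Circles are the means of the 3 MCF10.AT1-R arrays and ticks the single arrays. LIPA and STARD4 lie among the synthesis genes, while VLDLR, NPC2, LRP8, MYLIP and NPC1 lie at the lower end.

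The genes whose pattern was nearest to each member were named by the Euclidean distance over the 5 arrays, each probe set centred on its MCF10.AT1 mean. Candidates were the 36081 symbols with a probe set that passed the filter on low and invariant probe sets. LRP8, SCARB1, NPC1 and MYLIP were themselves removed as invariant, so probe sets as invariant as these could not be named. Nearest to STARD4 were CDH3 (distance 0.102), DMKN (0.105) and LSS (0.106), with log2 changes of 0.93, 0.84 and 0.93. LSS is lanosterol synthase of the cholesterol pathway, and CDH3 is P-cadherin of epithelial junctions. In all 23 symbols lay within 0.2 of STARD4, these 3 included, and 2 within 0.2 of LIPA. Nearest to LIPA were the transcript named cheedoy (0.182), TMEM63B (0.191) and B4GALT4 (0.202), with log2 changes of 1.09, 1.03 and 1.15. Nearest to NPC2 were PSMD7P1 (0.0619), SLITRK6 (0.0846) and C2orf68 (0.0902), with log2 changes of -0.49, -0.54 and -0.52. The nearest were AL590126.1 and SUGP2 for LRP8 and spawstar, PAK3 and OR2M1P for VLDLR. They were AL391261.1, P2RY10 and RNA5SP318 for SCARB1, smosawbo, LRRC73 and LOC643623 for NPC1, and SV2A, ZBTB25 and NDUFB9P2 for MYLIP. The number of candidates within 0.2 ran from 0 for VLDLR to 190 for LRP8. Invariant probe sets are missing from these numbers, so they do not compare how common each member's pattern is on the array.

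The other genes of uptake and trafficking were drawn from 7 lists of 112 genes in all. Of these 112 genes 66 were tested and 3 passed an FDR of 5% in limma, TFPI lower and LIPG and STARD10 higher in MCF10.AT1-R, against 1.2% of all tested. Their median log2 change was 0.11. With the trend option 11 passed, 10 of them higher, against 2.68% of all tested.

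Among ligands and partners of the receptors, 8 of 11 genes were tested and 2 passed. TFPI, an inhibitor of the tissue factor pathway that lipoprotein receptors clear, read 5.07 and 4.52 in MCF10.AT1 and 3.46, 3.49 and 3.11 on B02, B03 and B04. The log2 change of -1.44 was past the threshold (limma, adjusted p = 0.000766). Without A01 it was -1.17 and did not pass (adjusted p = 0.295). LIPG, a phospholipase that acts on high-density lipoprotein, read 3.51 and 3.72 in MCF10.AT1 and 4.62, 4.97 and 5.01 in MCF10.AT1-R. Its log2 change was 1.25 (adjusted p = 0.00832 from limma). Without A01, A02 or B04 the log2 change was 1.14, 1.36 or 1.18 and did not pass (limma, adjusted p of 0.322, 0.125 and 0.0571). In the fits without A01 or A02 MCF10.AT1 has a single array, whose spread is then taken from the resistant line. THBS1, thrombospondin, had a log2 change of 0.66 (limma, adjusted p = 0.530) and passed with the trend option. RELN, which encodes reelin, was at control level on all 5 arrays.

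Of 19 other lipoprotein and scavenger receptors, 13 were tested and 0 passed an FDR of 5% in limma, with 2 at an unadjusted p under 0.05. Their median log2 change was -0.05. By main probe set, the largest differences either way were SORT1 at 0.64 and LRP1 at -0.55, with adjusted p of 0.567 and 0.686 from limma. SORT1 was at control level on A01 and A02 and above it on the 3 MCF10.AT1-R arrays. LRP10, at 0.62, was the 1 receptor that passed with the trend option (adjusted p = 0.0269).

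Of 27 chaperones, clathrin adaptors and recycling proteins, 11 were tested and 0 passed in limma, with 1 at an unadjusted p under 0.05. That gene was CLTB, a clathrin light chain, which read 8.04 and 7.72 in MCF10.AT1 and 8.82, 8.82 and 9.21 in MCF10.AT1-R. Its log2 change was 1.07 (adjusted p = 0.0505 from limma and 2.52e-16 with the trend option). Neither fit gave weight to CLTB's own residual SD of 0.23. The adjusted p was 0.000797 when the trend option was combined with the low-expression filter alone, and 0.176 with that filter and no trend. The median log2 change of the list was 0.15. Non-overlapping arrays were higher in the resistant line for 11 of the 27 and lower for 1, and after quantile normalization without A03 for 8 and 2. Among all probe sets with a mean above 6 the shares were 24.6% and 19.9%. At the other end stood MESD (listed as MESDC2), a chaperone of lipoprotein receptors, with a log2 change of -0.36.

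The LXR receptors induce MYLIP, and of these receptors, their RXR partners and other target genes (11 genes), 9 were tested and 0 passed in limma, with 0 at an unadjusted p under 0.05 and 0 with the trend option. The lowest log2 change was -0.39, for LPCAT3, an enzyme of phospholipid remodelling. ABCA1 and ABCG1, which export cholesterol, were at control level on all 5 arrays.

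For sterol transport at late endosomes and membrane contact sites, 9 of 19 genes were tested and 0 passed in limma, with 3 at an unadjusted p under 0.05. These were the oxysterol-binding proteins OSBPL2 at 0.90, OSBPL1A at 0.73 and OSBP at 0.65 on the log2 scale. OSBPL2 read 5.95 and 5.72 in MCF10.AT1 against 6.79, 6.78 and 6.64 in MCF10.AT1-R, and it passed with the trend option (adjusted p = 0.000749), as did TMEM97, a protein that binds NPC1 (log2 change 0.47, adjusted p = 0.00856). A second OSBPL2 probe set, with overlapping lines, had a log2 change of -0.25. SIDT2 had the lowest log2 change of the list, at -0.39.

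Of 12 lysosomal lipid hydrolases and factors of lysosomal genes, 6 were tested and 0 passed in limma, with 1 at an unadjusted p under 0.05. The median log2 change was 0.25, and the arrays were higher without overlap for 7 of the 12 and lower for 0, against 12.2% and 11.1% of all transcript probe sets and 24.6% and 19.9% of those with a mean above 6. With the trend option 2 passed. PSAP, the precursor of the saposins, had a log2 change of 0.38 (limma, adjusted p = 0.00219 with that option and 0.0505 with it and the low-expression filter alone), and the other, with the largest change of the list, is not named here. TFEB, a factor of lysosomal genes, was at control level and had the lowest log2 change, -0.15.

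In the START domain family to which STARD4 belongs, 10 of 14 other genes were tested and 1 passed. STARD10, a carrier of phospholipids, read 5.95 and 5.84 in MCF10.AT1 and 7.16, 6.95 and 7.19 in MCF10.AT1-R. Its log2 change was 1.20 (adjusted p = 0.0144 from limma). It did not pass without A01 (0.191), A02 (0.355), B02 (0.0578) or B04 (0.0664), while the log2 change stayed between 1.15 and 1.28 whichever array was left out. CERT1 (listed as COL4A3BP), which carries ceramide, had a log2 change of 0.63 (limma, adjusted p = 0.567 and 0.0122 with the trend option). STARD5, which binds sterol, had a log2 change of 0.28 (limma, adjusted p = 0.842), and STARD3, removed as invariant, one of -0.13. The family's lowest log2 change was -0.48 for STARD9.

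**Figure D4:**
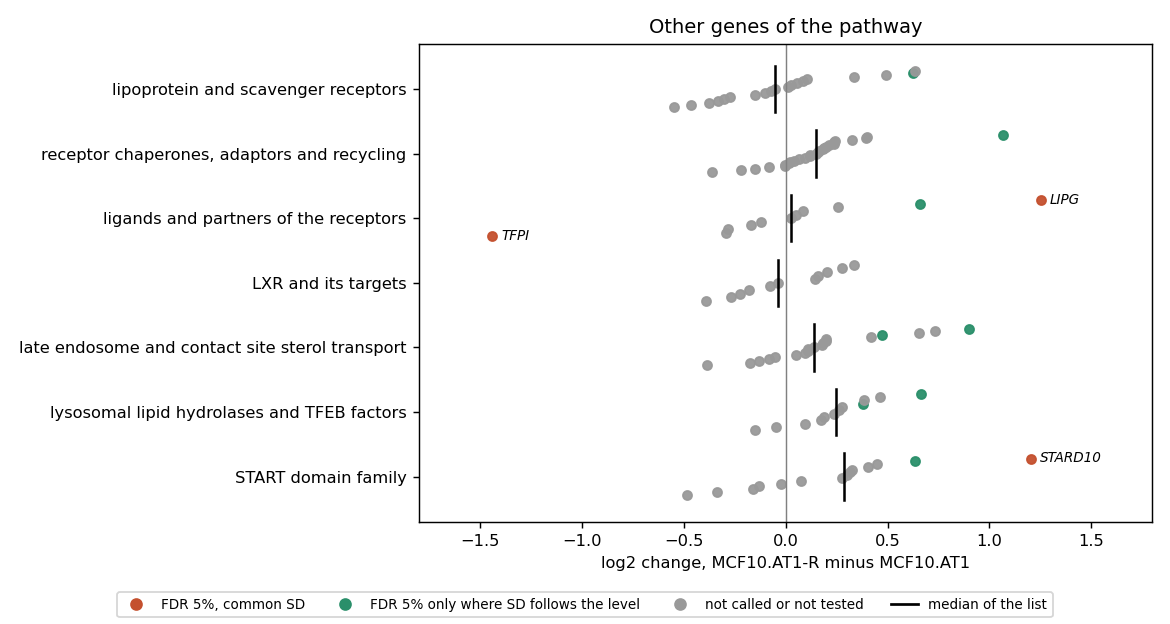
Log2 change, MCF10.AT1-R minus MCF10.AT1 (horizontal axis), of the genes of 7 lists of uptake and trafficking, 1 point per gene and a bar at each median. Red points passed an FDR of 5% with the common SD, green points only where the SD follows the expression level. TFPI, LIPG and STARD10 are the 3 red points, and the medians run from -0.05 to 0.29.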

How the data were processed

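Total RNA of both lines was profiled on Clariom D arrays. The authors made the deposited log2 values from the raw intensities by RMA (background correction, quantile normalization and summarisation of probes) with the Bioconductor packages affy and oligo. Package versions, genome build and the numbers behind their filter are not given in the sources used here. The deposited table holds 138745 probe sets on 6 arrays, unfiltered, with 2995 control probe sets that were left out of the tests. Array names were tied to a line, by inference, and not to a replicate number.

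Probe sets with a mean over the 5 arrays above the median (1.88) and an SD above the lowest 25% (0.18) were fitted with limma 3.58.1 in R 4.3.3, MCF10.AT1-R against MCF10.AT1, with Benjamini-Hochberg adjustment over 51457 probe sets at FDR 5%. Removed members were looked up in a fit without a filter. The fit was tested on simulated data. Control level means at or under the 95th percentile of 612 negative controls of the same array. The genes named are the members, the genes of each list past FDR 5% or with the largest changes, and the 3 nearest patterns, and a few others were named after their values were seen. Members and lists were chosen with earlier results of these data known. P-values rest on the spread between arrays of these cultures, and the number of arrays limits the precision. In the main fit that spread was pooled over all tested probe sets, and with the trend option it followed the expression level. A gene's own spread carried no weight in either. Genes of chromosome 8 and a few other listed genes are counted and not named.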

Additional observations from a re-analysis of the deposited data

How the results depend on the processing

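The arrays, filters, variance model, normalization, choice of probe set and threshold were changed singly, as was the pair of low-expression filter with trend option. The filters, the trend and robust options and the threshold leave a log2 change as it is, so they bear only on the calls. No paired analysis was possible because the array names carry no replicate number of the labels. Which arrays were used changed direction. With A03 added, the log2 change was 1.91 for LRP8, 1.49 for NPC2 and 0.28 for MYLIP, 1.77 for SCARB1, 1.57 for NPC1 and 2.19 for LIPA. In that fit 0 genes passed among the ligands, the START family and the synthesis genes. NPC1 turned to -0.082 without A02. With the floor no value could be had for MYLIP.

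The variance model and the filter changed calls. Members past FDR 5% numbered 0, but 3 with the trend option (log2 changes of 1.04 for LIPA, 0.89 for STARD4 and -0.52 for NPC2), 2 when it was combined with the low-expression filter alone (LIPA at 1.04 and STARD4 at 0.89), 1 with array weights (LIPA at 1.08), 1 with the floor (STARD4 at 0.89) and 2 at FDR 10% (LIPA at 1.04 and VLDLR at -0.99). With the trend option 1 receptor, 1 adaptor, 2 contact site genes, 2 lysosomal genes, 2 START genes and 14 synthesis genes passed. Combined with the low-expression filter alone the counts were 1, 1, 2, 1, 2 and 15. Among the adaptors 1 passed also with array weights, with the robust option, with probe sets averaged and at FDR 10%. Among the ligands 0 passed with the low-expression filter alone, without a filter and with the floor. In the START family 0 passed with the low-expression filter alone, without a filter and with the stricter invariant filter. Of the synthesis genes 10 passed with the floor and 4 at FDR 10%. Over all probe sets 620 passed, against 1377 with the trend option, 1086 with it and the low-expression filter alone, 182 with that filter alone, 177 without a filter, 408 with the stricter invariant filter, 272 with the floor and 26 with A03.

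Leaving out each array in turn gave log2 changes of 0.77 to 1.32 for LIPA (past the threshold without B03, at 1.16), 0.80 to 0.97 for STARD4, -1.32 to -0.66 for VLDLR, -0.71 to -0.33 for NPC2, -0.30 to -0.15 for LRP8, -0.26 to -0.03 for MYLIP, 0.09 to 0.27 for SCARB1 and -0.082 to 0.17 for NPC1. Without B02, B03 or B04, members past the threshold numbered 0 to 1, adaptors 0 to 1, ligands 1 to 2 and START genes 0 to 1. Members without overlap are not counted here, because the share over all probe sets was not taken with an array left out. TFPI, LIPG and STARD10 did not pass without A01, LIPG and STARD10 also not without A02 or B04, nor STARD10 without B02. Without A01 or A02 the single MCF10.AT1 array is assumed to vary like MCF10.AT1-R. Without A01 314 of all probe sets passed and without A02 271. The cause was not tested beyond the smaller number of arrays.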
